A study of Homo sapiens with 3 samples.

Results

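The stretch of chromosome 6 that runs from the histone gene cluster through the major histocompatibility complex (MHC) was examined for HMGA1 peaks in DAMI cells. Members were all peaks whose summit lay from 25700000 to 33400000 on chromosome 6 (hg19), a span of 7.7 Mb chosen by position and not by any measured value. It held 905 of the 385953 peaks called over input DNA (the input list) and 670 of the 263033 peaks called over histone H3 (the H3 list). DAMI is an established leukaemic cell line, labelled as myeloproliferative neoplasm and acute myeloid leukaemia (MPN/AML), and was grown in serum-containing medium with no treatment named in the labels. The series has 3 libraries of these cells, an HMGA1 ChIP, an H3 ChIP and input DNA made with no antibody, with 1 library each and so with no replicate error. H3 is a core histone carried by all nucleosomes, and here it served as a second control. Both lists were called from the same HMGA1 library, so a peak found in both is not a replicated peak. The fold of a peak is the authors' own ratio of HMGA1 over the control at the summit. HMGA1 reads and control levels at summits were worked out from the authors' fold and p-value. A control level is given as times the floor, a level at the low end of those in that list (2.78 reads for input and 2.19 for H3). Many peaks share it: on all autosomes 35.7% of input-list peaks and 42.7% of H3-list peaks lay at their floor. Intervals are 95% intervals and cover counting error only.

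HMGA1 is an architectural protein whose AT-hooks grip the minor groove of AT-rich DNA, and it takes part in bending DNA and in opening chromatin. The replication-dependent histone genes are short, lack introns, and are read in S phase to package newly made DNA. Between and beyond them lie butyrophilin genes, zinc-finger genes that encode DNA-binding repressors, and a large group of olfactory receptor genes that are silent outside sensory neurons. The MHC follows. Its class I genes present peptides made inside the cell, its class II genes present peptides taken up by antigen-presenting cells, and class III between them is packed with genes for complement, cytokines and housekeeping functions.

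Promoters of these gene families differ in the AT-rich letters that HMGA1 can use. The sequences show 1 gene for each of 3 families (histone, olfactory receptor and class III), the one nearest the family's median AT share. They are the 250 bases before the gene's start in RefSeq on GRCh38.p14, whose coordinates do not match those of the peaks, so peaks were not assigned to promoters. H2AC6, a gene for the core histone H2A, lies at chr6:26123922-26124171 on the plus strand. OR11A1, an olfactory receptor gene, lies at chr6:29457072-29457321 on the minus strand, and the class III gene PRRC2A at chr6:31620465-31620714 on the plus strand. Capitals mark unbroken runs of at least 6 A or T bases.

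H2AC6: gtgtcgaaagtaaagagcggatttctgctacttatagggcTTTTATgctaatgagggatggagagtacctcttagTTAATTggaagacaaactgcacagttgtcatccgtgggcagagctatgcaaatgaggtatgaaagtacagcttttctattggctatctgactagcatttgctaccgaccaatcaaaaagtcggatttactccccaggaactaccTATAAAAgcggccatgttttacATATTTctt

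OR11A1: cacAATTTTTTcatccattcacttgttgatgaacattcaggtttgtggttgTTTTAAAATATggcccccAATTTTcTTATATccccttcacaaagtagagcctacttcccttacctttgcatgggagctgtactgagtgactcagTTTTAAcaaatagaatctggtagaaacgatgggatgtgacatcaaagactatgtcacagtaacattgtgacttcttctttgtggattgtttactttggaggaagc

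PRRC2A: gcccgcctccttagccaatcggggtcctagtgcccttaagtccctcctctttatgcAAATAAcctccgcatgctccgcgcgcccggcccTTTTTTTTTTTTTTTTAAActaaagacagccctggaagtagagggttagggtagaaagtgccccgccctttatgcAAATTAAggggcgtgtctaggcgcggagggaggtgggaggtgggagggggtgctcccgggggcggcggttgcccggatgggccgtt

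In H2AC6 58.8% of the bases were A or T, in OR11A1 61.6% and in PRRC2A 41.2%. PRRC2A is typical of class III in AT share but not in its longest A or T run, 19 bases against a class III median of 7. The longest run was 7 bases in H2AC6 and 11 in OR11A1. Of the 55 histone genes of the cluster 50 had a promoter in the table, and their median AT share was 58.8% (range 39.2 to 65.6). The histone genes before the butyrophilins (up to H4C8, 32 promoters) and those beyond them (from H2BC11, 18 promoters) had nearly the same median, 59.2% and 58.2%. The 14 olfactory receptor promoters stood at 62.6%, and the 8 zinc-finger promoters at 50.6%. Class I genes from HLA-F to MICB (43 promoters) had a median of 40.4% and class III genes from MCCD1 to NOTCH4 (53 promoters) one of 41.2%. Class II genes from TSBP1 to TAPBP (30 promoters) had 47.8%, within which the 12 HLA class II promoters had 55.4%. The median of all 27305 RefSeq promoters was 42.0%. An A or T run of at least 6 bases was present in 50 of 50 histone promoters and 14 of 14 olfactory receptor promoters, against 5 of 8 zinc-finger promoters (62.5%), 60.5% of class I, 71.7% of class III, 73.3% of class II and 59.6% of all promoters. Of the HLA class II promoters 9 of 12 (75%) had one.

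HMGA1 peaks were unevenly spread, with the highest density in the second histone stretch and the lowest in MHC class I and III. In the input list the second histone stretch (27.7 to 28 Mb) held 210.0 peaks per Mb (interval 161.4 to 268.7, 63 peaks), above the 178.0 of the rest of chromosome 6. The first histone stretch (26.0 to 26.3 Mb) held 113.3 (78.5 to 158.4, 34 peaks). The parts around it had higher values, 166.7 per Mb before it (123.7 to 219.7, 50 peaks) and 166.4 between the histone stretches (145.7 to 189.2, 233 peaks). Both of these intervals overlap that of the first histone stretch. The zinc-finger and olfactory receptor stretch (28 to 29.6 Mb) held 144.4 per Mb (126.4 to 164.2, 231 peaks). Density then fell at the MHC, to 68.3 per Mb in class I (29.6 to 31.4 Mb, interval 56.8 to 81.5, 123 peaks) and 48.8 in class III (31.4 to 32.2 Mb, interval 34.7 to 66.6, 39 peaks). Class II (32.2 to 33.4 Mb) stood higher again at 110.0 per Mb (92.0 to 130.4, 132 peaks).

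Set against the rest of chromosome 6, class III had 0.274 times and class I 0.384 times the density, class II 0.618 times and the second histone stretch 1.18 times. The intervals of class I and class III overlapped each other, and neither reached that of class II or of the zinc-finger and olfactory receptor stretch. Those of the second histone stretch and of the rest of the chromosome did overlap. The first histone stretch lay below the second with intervals that did not overlap. Over H3 the parts stood in the same order by peaks per Mb. Density was 146.7 in the second histone stretch, 140.0 before the first, 117.9 between them and 115.0 in the zinc-finger and olfactory receptor stretch. Then came 90 in the first histone stretch, 82.5 in class II, 44.4 in class I and 36.3 in class III. The 2 histone stretches were not told apart over H3, where their intervals were 59.3 to 130.9 and 106.6 to 196.9. Low density was not particular to the MHC on this chromosome: in its first 20 Mb the density was 79.9 per Mb over input and 39.2 over H3. The controls differed, as 73.5% of input-list peaks in those 20 Mb lay at the input floor, against 7.32% in class I and 5.13% in class III. The density of the whole stretch, 117.5 per Mb over input and 87.0 over H3, compares with 132.4 and 90.9 on all autosomes.

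**Figure D1:**
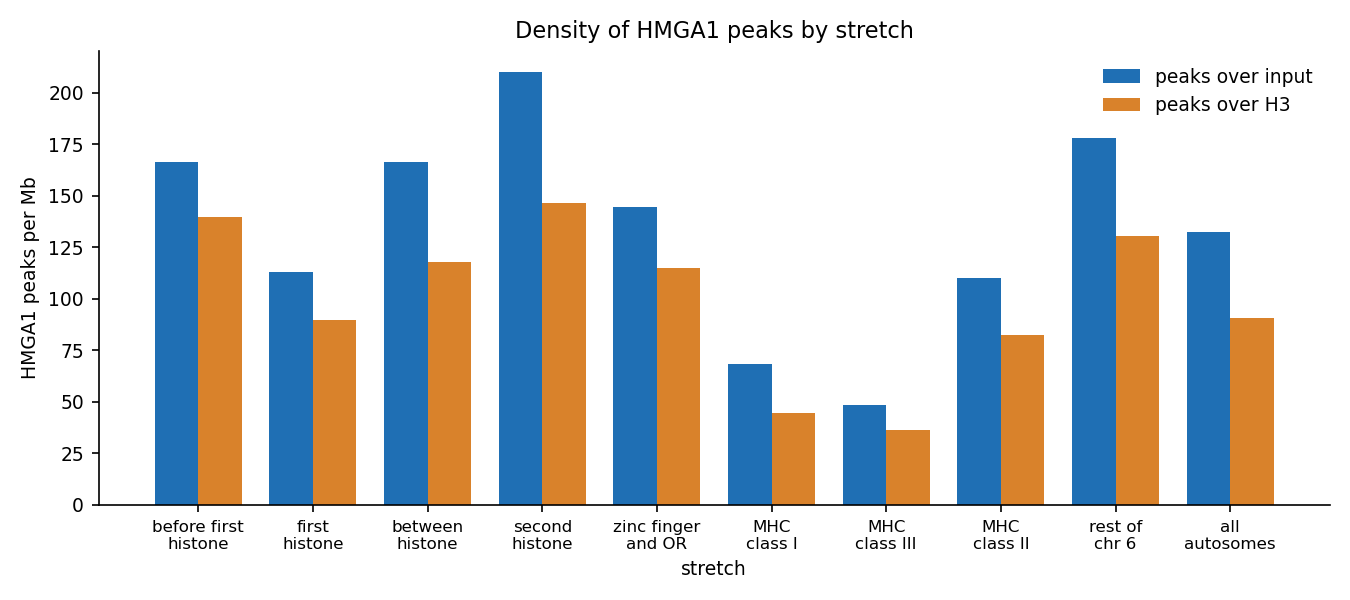
Bars give HMGA1 peaks per Mb (y axis) in each stretch (x axis), blue over input and orange over H3, beside the rest of chromosome 6 and all autosomes, with no error bars since there is 1 library per antibody. Class I (68.3 and 44.4) and class III (48.8 and 36.3) are the shortest pairs of bars, and the second histone stretch (210.0 and 146.7) is the tallest.

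In windows of 100 kb the highest counts lay outside both histone stretches. The window with the most input-list peaks was 26800001 to 26900000, between the histone stretches, with 33 peaks over input and 24 over H3. Next came 29200001 to 29300000, in the olfactory receptor part, with 29 and 23. The 3 windows of the second histone stretch held 18, 22 and 23 input-list peaks, and those of the first held 12, 14 and 8. Windows of the rest of chromosome 6 had a median of 17 input-list peaks, where windows with no peak in either list were left out. The mark of 5 or fewer was set on those 1595 windows to take in their sparsest part, so its share of 10.3% there follows from that choice. In the MHC 15 of 38 windows (39.5%) had 5 or fewer, namely 7 of 18 in class I, 5 of 8 in class III and 3 of 12 in class II. In the other 39 windows of the stretch there was 1 such window, in the zinc-finger and olfactory receptor part.

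The sparsest windows held 1 input-list peak each, at 32000001 to 32100000 in class III and 32400001 to 32500000 in class II. The window 30600001 to 30700000 in class I had 2 peaks over input and none over H3. Within the 7.7 Mb examined, all 5 of the longest distances between neighbouring input-list summits lay in the MHC. The longest was 127.3 kb in class III, from 31545814 to 31673129, and the next was 98.99 kb, also in class III, from 31989212 to 32088200. The others were 87.8 kb and 77.8 kb in class I (from 29659666 and from 30668013) and 80.2 kb in class II (from 32429041). Between these pairs 0 H3-list summits lay more than 200 bp from both bounding summits. The median distance on chromosome 6 was 2918 bp and 99% of distances were under 38750 bp. Of the 189 distances of at least 50 kb on the chromosome, 17 were in this stretch, which spans 7.7 Mb against 163.4 Mb in the rest. On the chromosome 55 distances were at least as long as the 77.8 kb one, the shortest of the 5 named. Median spacing of summits was 13510 bp in class III and 8036 bp in class I, against 3154 bp in the second histone stretch and 5135 bp in the first. Mappability, which can leave regions without peaks, was not analysed here.

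**Figure D2:**
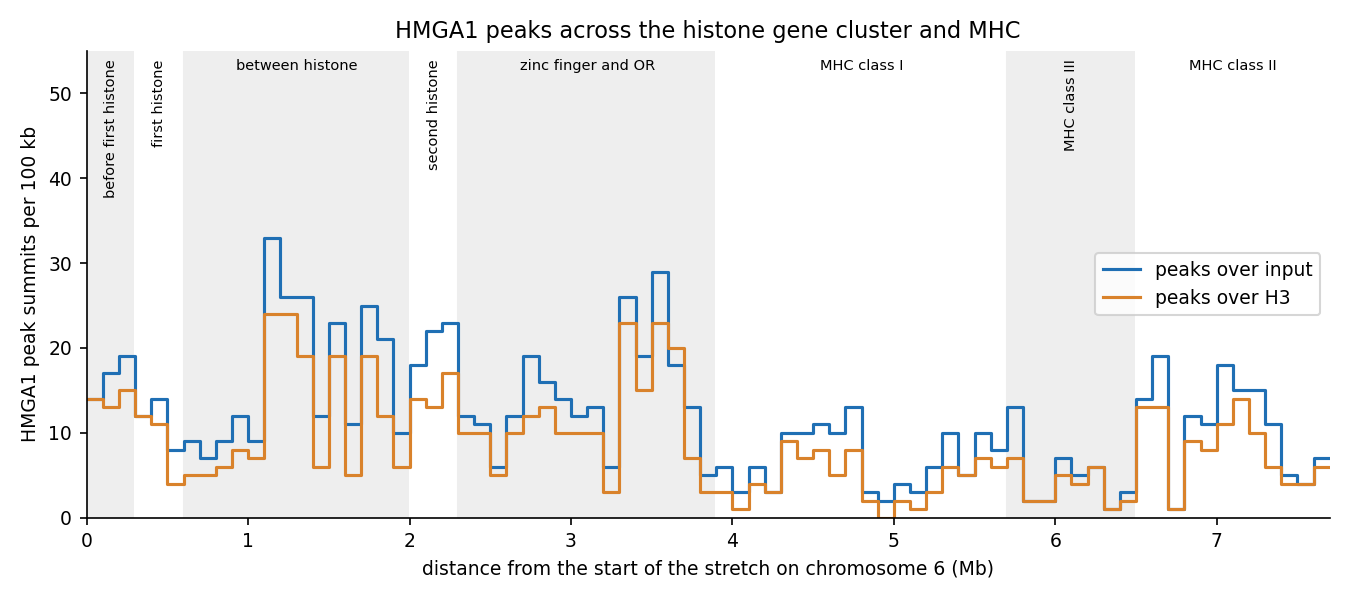
Lines give the number of HMGA1 peak summits in each 100 kb window (y axis) by distance in Mb from the start of the stretch (x axis), blue over input and orange over H3, with bands marking the 8 parts. Counts peak at 33 between the histone stretches and at 29 in the olfactory receptor part, and stay at 13 or below in class I and III.

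The first histone stretch differed from its surroundings in its controls. Of its 34 input-list peaks 18 (52.9%) lay at the input floor, and of its 27 H3-list peaks 16 (59.3%) lay at the H3 floor, against 19.3% and 37.2% in the rest of chromosome 6 and 35.7% and 42.7% on all autosomes. A run of 168.9 kb from 26067306 to 26236234 was bounded at the first and last of these 18 input-list peaks, so it held all 18 by construction. In it 18 of 21 input-list peaks and 14 of 15 H3-list peaks were at the floor. In the 150 kb before the run 0 of 26 input-list peaks were at the floor, and in the 150 kb after it 0 of 10. Where these flanks lie inside the first histone stretch, the choice of edges left no input-list peak at the floor. No limit is therefore drawn from these counts. Over H3 the flanks had 2 of 22 and 0 of 6 at the floor. The median input level was 1.35 times the floor before the run and 1.27 times after it. H3 followed the same course, with 1.11 times the floor before and 1.29 times after.

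HMGA1 peaks inside this run had read counts near those of its flanks. Their higher median fold over input follows from bounding the run by peaks with input at its floor, and is not a separate result. Their median was 19 HMGA1 reads and a fold of 5.29 over input, against 21.5 reads and 4.17 before the run and 19 reads and 3.92 after it. Over H3 the median fold was 5.74 inside, 5.48 before and 5.30 after. The run held 124.3 input-list peaks per Mb, against 173.3 and 66.7 in its flanks. A fold is understated where the control is at its floor, since a lower control cannot be seen. Elsewhere such windows were common only at the start of the chromosome. Of the 57 windows of 100 kb here with at least 5 peaks in each list, 1 had at least 70% of its peaks at the floor in both lists, and it was the window 26100001 to 26200000. Outside this stretch, 42 of 70 such windows in the first 20 Mb of the chromosome and 1 of 1239 in the remainder met that mark. The run and this count were chosen after their values were seen, and whether copy number, mappability or chromatin sets the low controls was not tested.

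**Figure D3:**
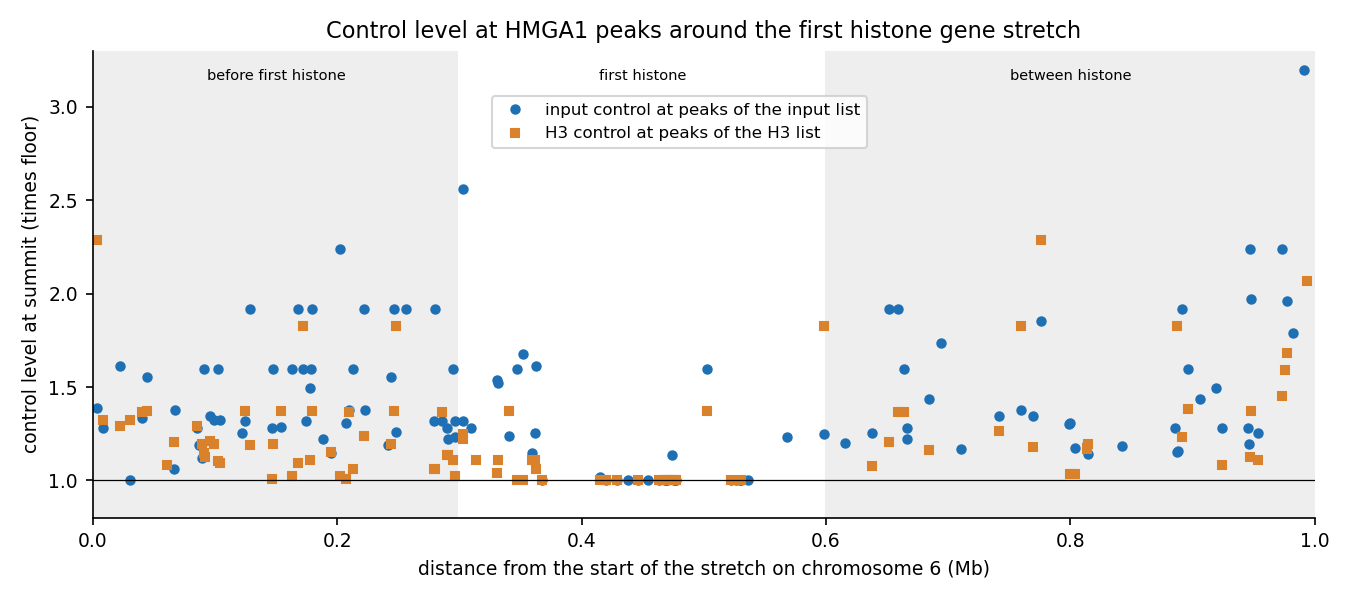
Points give the control level at the summit of each peak in times its floor (y axis) over the first 1 Mb of the stretch (x axis, distance in Mb), blue circles for input at input-list peaks and orange squares for H3 at H3-list peaks. Within the band of the first histone stretch, 18 of 21 blue points and 14 of 15 orange points of the run sit on the floor line, with higher levels on each side.

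The leading peaks of the first histone stretch all lay in or beside that run. The highest fold over input was 8.99 at 26119533 to 26120441, with 33 HMGA1 reads and input at its floor, and this was also the widest peak of the stretch at 909 bp. The peaks from 26176687 (8.73-fold, 32 reads) and from 26173759 (7.45-fold, 30 reads) followed, and all 3 had an H3-list peak, at 8.46-, 8.21- and 7.72-fold. Over H3 the leader was the peak at 26062741 to 26063060, just before the run, with 9.31-fold over H3, 7.10-fold over input and 38 reads. The tightest group, 8 summits within 20 kb, ran from 26163257 to 26177365, inside the run.

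Taller peaks were found on either side of the first histone stretch than in it. Before the first histone stretch the peak at 25765926 to 25766712 reached 13.2-fold over input and 11.3-fold over H3 with 51 reads. Between the histone stretches the peak at 26934654 to 26935190 had 57 reads and was 14.5-fold over input and 14.4-fold over H3, with H3 at its floor. It ranked within the top 0.0666% of all input-list peaks by fold. Its neighbour at 26936982 to 26938670 was the widest input-list peak of the whole stretch (1689 bp, 49 reads), at 7.89-fold over input and 12.4-fold over H3. The control there was 5.34 reads for input and 2.19, the floor, for H3. The densest group of summits lay in the same part, with 12 summits within 20 kb from 26824142.

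The second histone stretch had the most peaks per Mb of the 8 parts and, over H3, the largest share with a fold of at least 6. The interval of its density included the value of the rest of chromosome 6 in both lists (178.0 over input and 130.8 over H3). Its highest fold over input was 11.3 at 27707717 to 27708299 (42 reads, 8.51-fold over H3), followed by 10.5 at 27994541 to 27995208 (47 reads) and 9.94 at 27869778 to 27870082 (45 reads). Over H3 the peak at 27788438 to 27788885 led with 11.9-fold and 49 reads, against 9.18-fold over input. A fold of at least 6 was reached over H3 by 24 of its 44 peaks (54.5%, interval 40.1 to 68.3), against 34.9% in the rest of chromosome 6 and 31.3% of the whole H3 list. Over input 19 of its 63 peaks did so (30.2%, interval 20.2 to 42.4), against 25.9% and 23.1% of the whole input list, a difference within the counting interval. This was the only one of 8 parts whose share over H3 had an interval above the share of the rest of the chromosome; no correction was made for looking at 8 parts in 2 lists.

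In the zinc-finger and olfactory receptor stretch the peak at 29082727 to 29083142 stood out. It carried 62 HMGA1 reads and was 11.6-fold over input and 15.6-fold over H3, the highest fold over H3 in the whole stretch and within the top 0.0388% of that list. Input was at 4.45 reads there and H3 at its floor. The peak at 29457401 to 29457952 went the other way, at 11.5-fold over input and 6.46-fold over H3 (48 reads), where H3 stood at 5 reads. The widest input-list peak, 1548 bp from 28022194, held 3 separate H3-list peaks. Here 11 summits lay within 20 kb from 29247496.

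MHC class I was sparse but held the tallest peak over input of the whole stretch. The peak at 30031061 to 30031506 had 66 HMGA1 reads, the most of any member, and was 14.6-fold over input, within the top 0.0609% of the input list. Over H3 it was 8.82-fold, with H3 at 5 reads or 2.29 times its floor. The peak at 31073431 to 31073848 was 11.6-fold over input and 7.98-fold over H3 (43 reads). The peak at 30952617 to 30952952 was 11.4-fold and 10.4-fold (42 reads), and it led class I over H3. Members of 1 kb or wider, 11 in the input list, were found between the histone stretches (5), in the zinc-finger and olfactory receptor stretch (5) and in class II (1). Such peaks were 1.2% of the input-list members, against 2.29% in the rest of chromosome 6 and 2.02% on all autosomes. Their share was 2.15% between the histone stretches and 2.17% in the zinc-finger and olfactory receptor stretch.

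Class III, the gene-packed middle of the MHC, had the lowest maximum over H3. Its leading peak over input, at 31414755 to 31415136, was 9.77-fold with 39 reads, but 5.28-fold over H3, where H3 stood at 5 reads. The peak at 31757666 to 31757981 was 9.31-fold over input and 8.62-fold over H3 (39 reads). The neighbouring peak from 31756443, the widest of class III at 610 bp, was 8.07-fold and 8.51-fold with 42 reads. Of its 39 input-list peaks, 8 lay within 20 kb at its very start, from 31410994 to 31429380.

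Class II peaks were led by the one at 32253502 to 32253929, with 53 reads, 11.8-fold over input and 13.4-fold over H3, whose H3 level was at the floor. The peak at 32541542 to 32542026 was 11.2-fold over input and 10.1-fold over H3 (50 reads), and the peak at 33336501 to 33337178 was 10.7-fold and 8.13-fold (40 reads). The widest peak of class II ran for 1111 bp from 32347888 and was 8.46-fold over input and 9.44-fold over H3. Another peak next to it, from 32346740 in the H3 list, was 10.2-fold over H3 and 9.93-fold over input.

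In the sparse parts the peaks that were called had folds like those elsewhere. Median fold over input was 5.05 in class III and 4.64 in class I, against 4.61 in the rest of chromosome 6, and lay between 4.62 and 5.07 in all 8 parts. Median HMGA1 reads were 24 in class III, 21 in class I and 19.5 in the first histone stretch, against 20 in the rest of the chromosome. A fold of at least 6 was reached by 256 of the 905 input-list members (28.3%, interval 25.5 to 31.3) and by 244 of the 670 H3-list members (36.4%, 32.9 to 40.1). These shares stand against 25.9% and 34.9% in the rest of chromosome 6, which lie within the intervals, and 23.1% and 31.3% in the whole lists, which lie below them. Medians cover only peaks that passed the caller, so they do not compare HMGA1 between the parts. No member had fewer than 10 reads in the input list or 13 in the H3 list. Peaks covered 7.38% of the bases of the second histone stretch over input and 1.42% of class III, against 6.69% of the rest of the chromosome.

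**Figure D4:**
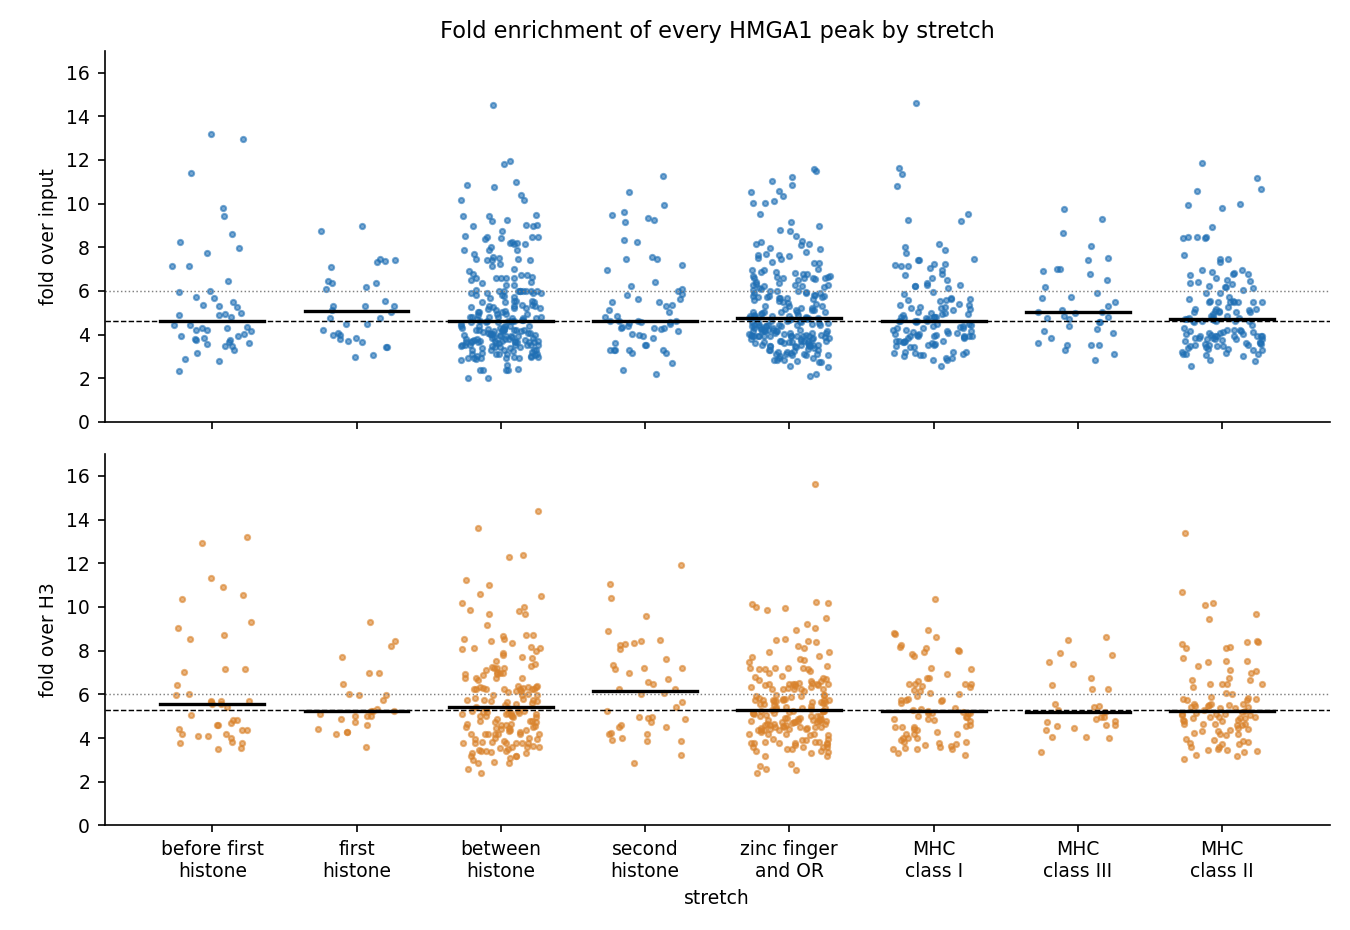
Each point is the fold of 1 HMGA1 peak (y axis) over input (top, blue) or over H3 (bottom, orange) in each part of the stretch (x axis), with black bars at medians, a dashed line at the median of the rest of chromosome 6 and a dotted line at a fold of 6. Medians over input lie between 4.62 and 5.07 in all 8 parts, and over H3 the second histone stretch has the highest median, 6.15.

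Most members were found in both lists, which share their HMGA1 reads. Of the 905 input-list members 640 overlapped an H3-list peak by at least 1 bp (70.7%, interval 67.7 to 73.6), against 70.8% in the rest of chromosome 6 and 65.8% of the whole list. Of the 670 H3-list members 651 overlapped an input-list peak (97.2%, 95.6 to 98.2), against 98.1% and 98.3%. By part, the share of input-list peaks with an H3 counterpart ran from 62.6% in class I (77 of 123, interval 53.8 to 70.7) to 80.0% before the first histone stretch (40 of 50, 67.0 to 88.8). The class I interval ended just below the 70.8% of the rest of the chromosome. Members with no counterpart were low, with a median of 16 HMGA1 reads and 3.80-fold over input, against 24 reads and 5.48-fold for those with one.

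At equal HMGA1 reads, the share of peaks also found over H3 was lowest in class I for peaks of 16 to 19 and of 20 to 24 reads. Class III held few such peaks, and its intervals overlapped those of the other parts. Of the peaks with 20 to 24 reads, 28 of 45 in class I and III had an H3 counterpart (62.2%, interval 47.6 to 74.9), against 164 of 184 in the other parts (89.1%, 83.8 to 92.9) and 94.0% in the rest of chromosome 6. Class I gave 21 of 35 (60.0%, 43.6 to 74.5) and class III 7 of 10 (70%, 39.7 to 89.2). The second histone stretch, among the other parts, gave 12 of 16 (75%, 50.5 to 89.8), an interval that overlaps both. For 16 to 19 reads the shares were 35.3% (21.5 to 52.1), 58.4% (51.2 to 65.2) and 62.7%, where the intervals of the first and second overlap. Within these, class III and the second histone stretch both stood at 50% and class II at 48.3%, against 30.8% in class I. With 8 to 15 reads the order was the other way, 19.05% in class I and III (7.67 to 40.0) and 14.2% in the other parts (9.16 to 21.3), with overlapping intervals. With 25 reads or more 62 of 62 class I and III peaks had a counterpart, against 98.8% in the other parts and 99.6% in the rest of chromosome 6. The H3 level at H3-list peaks was higher in class I and III, at a median of 1.33 times the floor in class I and 1.37 in class III, against 1.07 in the rest of chromosome 6 and 1 to 1.26 in the other parts. Input at input-list peaks stood at 1.28 times the floor in class I, III and II alike. The part of the H3 level in the missing counterparts was not tested, and the grouping of class I with III was chosen after the values were seen.

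**Figure D5:**
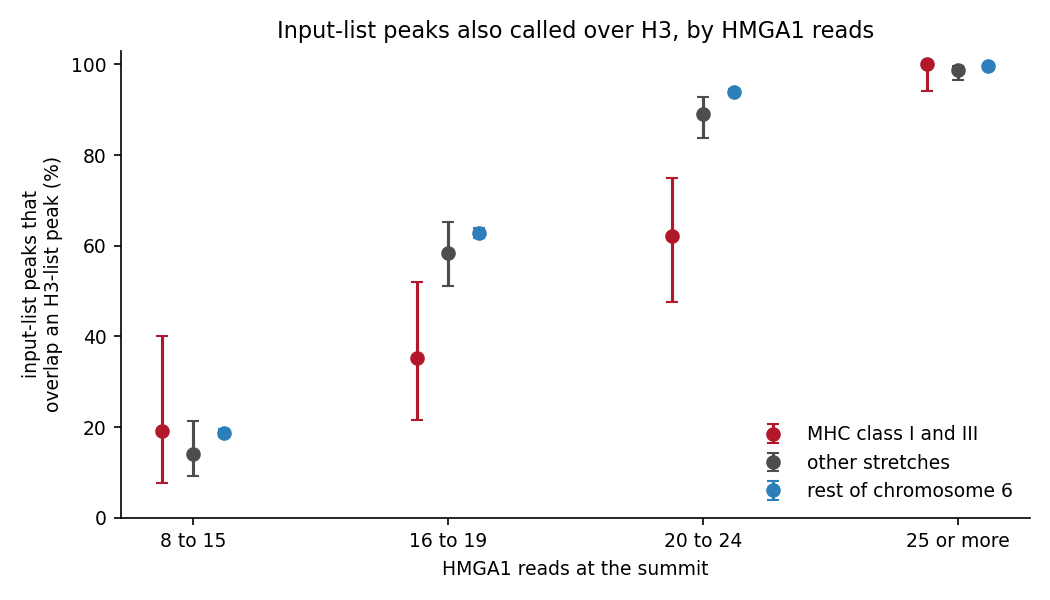
Points give the percentage of input-list peaks that overlap an H3-list peak (y axis) by HMGA1 reads at its summit (x axis), for MHC class I and III (red), the other 6 parts (grey) and the rest of chromosome 6 (blue), with bars for the 95% Wilson interval. At 20 to 24 reads the red point stands at 62.2%, below 89.1% and 94.0%.

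The peaks with the most HMGA1 reads that lacked an H3 counterpart lay between the histone stretches. There were 3 members with 25 reads or more and no counterpart, out of 309. These 3 peaks started at 26691281 (30 reads, 3.13-fold over input), 26699927 (26 reads, 4.07-fold) and 26394002 (26 reads, 4.64-fold). The first of them stood on an input level of 8.90 reads.

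For 254 members the summit had the same position over input and over H3, so that the 2 controls could be set side by side. The HMGA1 reads worked out from the lists were equal at all 254. H3 relative to its floor was a median 0.845 times input relative to its floor in the second histone stretch (27 summits), 0.774 times before the first (16), 0.907 times in it (10) and 0.902 times between them (58). It was 0.983 times in the zinc-finger and olfactory receptor stretch (68), 1.07 times in class I (27), 1.03 times in class III (11) and 0.982 times in class II (37). The rest of chromosome 6 stood at 0.929 times over 9043 summits and all autosomes at 0.994 times, so that class I and III lay closer to the autosomes than to the rest of the chromosome. Input exceeded H3 by more than 1.5 times at 6 of the 27 summits in the second histone stretch (22.2%) and at 3 of the 27 in class I (11.1%). The share was 14.6% in the rest of chromosome 6 and 11.8% on all autosomes. Before the first histone stretch it was 25%, in that stretch 20% and between the histone stretches 22.4%. Median folds at the shared summits were 5.62 over input and 6.98 over H3 in the second histone stretch, and 5.97 and 5.80 in class I. These summits are a small and tall part of the members, with a median of 25.5 HMGA1 reads, and the fold over H3 uses HMGA1 reads multiplied by 0.787.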

How the data were processed

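HMGA1 ChIP, H3 ChIP and input DNA of DAMI cells gave 1 library each. Peaks were called by the authors with MACS2 on hg19, per the submitters' processing notes; of its version, the aligner and filters nothing is given in the sources used here. The deposited lists hold, per peak, the authors' fold ratio at the summit, −log10 of p and of q, and a score (not used). They hold no counts, so total depth is unknown.

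HMGA1 reads were recovered as the whole number that gives back the deposited fold (1 added to both terms) and Poisson p-value within 0.001. This held for all 385953 input-list peaks and, with HMGA1 multiplied by 0.787 (fitted on 400 peaks), for 263031 of 263033 H3-list peaks, members included; it was tested on simulated data. A control within 0.1% of the floor counted as at it. Intervals are Wilson (shares) or exact Poisson (densities), and no test was made. Named peaks are the 3 of highest fold and the widest of each of the 8 parts in each list, with the 5 longest distances; peaks without a counterpart were named after their values were seen. Members and lists were chosen with earlier results of these data known.

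Peaks at gene starts and AT content at summits, which were planned, were not run for want of an hg19 sequence; RefSeq promoters (GRCh38.p14) were added later. Alternatives were stricter q-values and folds, other overlaps, shifted edges and shorter lengths. Tools were matplotlib 3.10.9, scipy 1.17.1, pandas 2.3.3 and numpy 2.4.6 under Python 3.11.15. Peak coordinates are 1-based.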

Additional observations from a re-analysis of the deposited data

How the results depend on the processing

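No paired analysis was possible because every antibody has a single library. No library could be left out either. The densities of the 8 parts relative to the rest of chromosome 6 stayed within 1.5 times of their values in 80 of 80 alternatives (2 lists, 5 settings); class III ranged from 0.241 to 0.328 over input and class I from 0.369 to 0.425. The alternative in which lengths left out any 1 Mb or more without a peak, and the overlaps at 20 to 24 reads, were added after the data were seen. With at least 25 HMGA1 reads the share of input-list members with an H3 counterpart was 99%, with 96.1% between the histone stretches and 100% in each of the other 7 parts; for H3-list members it was 99.7%. Of the H3-list members 93.0% had a counterpart where half-overlap (50% of each peak) was asked, and 95.2% where summits had to lie at most 200 bp apart, against 97.2%. The share at 20 to 24 reads stayed at 62.2% in class I and III under both other overlaps. The share of peaks with a fold of at least 6, relative to the rest of chromosome 6, became with a fold of at least 8 over input 1.56 before the first histone stretch (1 with 6), 0.657 in it (1.36), 1.44 between (1.11) and 1.77 in the second histone stretch (1.16), and over H3 2 before the first (1.02) and 2.1 in the second (1.56). The cause was not tested. The fewest HMGA1 reads of any called peak were 8 over input and 11 over H3. Sites with fewer reads are absent from the lists, and no detection limit was worked out.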
